A study of Mus musculus with 9 samples.

Results

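Head-to-head gene pairs are genes on opposite strands whose transcription start sites lie close together and point away from each other. A single stretch of DNA can then serve as the promoter of both. Pairs were taken from the gene coordinates of the expression table: the start of the minus-strand gene lay at or to the left of the start of the plus-strand gene, on the same chromosome, with 0 to 1000 bases between the starts. Under this rule 1102 pairs were found, formed by 2172 of the 19769 genes in the table (10.99%), and 31 genes belonged to more than 1 pair. Another 653 pairs of genes 0 to 1000 bases apart lay in tandem on 1 strand and 522 lay tail to tail, and these served for comparison. Each pair is named with its minus-strand gene first, and its region ran from 500 bases outside one start to 500 bases outside the other.

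The study asked how single mouse cells hold their level of MYC, a transcription factor that raises the output of many genes, and whether the single-stranded DNA binding proteins FUBP1 and FUBP2 take part. For RNA-seq, mouse embryonic fibroblasts (MEFs) homozygous for a Myc-Egfp allele, which makes MYC fused to green fluorescent protein, were held in 20 µM of the proteasome inhibitor MG-132 for 6 h, sorted into low-MYC and high-MYC cells by fluorescence and seeded overnight. Both groups carried the same allele and received the same treatment, and each was measured in 2 libraries described as technical replicates, so that tests here measure the spread between libraries and not between cultures. Accessible chromatin was measured by TACh-seq (targeted chromatin accessibility), in which the nuclease Cyanase cut chromatin for 3 min before short fragments were sequenced, in 2 wild-type samples and in 2 of Fubp1 knockout cells with Fubp2 knocked down. Both kinds of cells had received 100 nM siRNA for 48 h, against Fubp2 in the knockout samples, and the protocol names a non-target siRNA as the control. No column of the read table used here names a sample, and its title, which points to 1 wild-type sample, was not taken as evidence of its source, so its reads could not be assigned to a genotype and no comparison of genotypes was made. FUBP1 binding was measured by ChIP-seq in 1 sample, cross-linked for 8 min, and the peaks used here all lie on chromosome 15.

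RNA values were FPK (fragments per kilobase) divided by a score of ERCC spike-in RNA, which had been added per cell, so that they stand for RNA per cell. For 72.7% to 74.1% of the values worth up to 20 reads, a value was a whole number of reads (within 0.05 of a read) divided by the length of the gene from end to end, introns included. A level per kilobase of gene span therefore depends on how much of a gene is intron, and levels of partners are also given per kilobase of exon (the union of annotated exons). The recovered totals ranged from 87671617 to 96311698 reads per library. All 10 fibroblast markers were at 0.1 or more in both groups, with a summed level of 334 to 339 in low-MYC and 802 to 818 in high-MYC libraries. The summed level of 13 macrophage markers was 0.625 to 0.870 in low-MYC and 27.9 to 29.3 in high-MYC libraries, none of them is a gene of a head-to-head pair, and their part in the results below was not tested.

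Promoters of this kind are common in mammals. They are usually rich in CpG dinucleotides and poor in TATA boxes, and they often join genes for basic cell functions such as DNA repair, mitochondrial proteins or histones. An RNA polymerase that starts within such a stretch moves to one side only, so both genes need a start complex of their own, but both lie in a single stretch of open chromatin.

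The DNA between the starts is shown for 8 pairs on which the results below turn, on the plus strand of the mm10 genome (GRCm38), so that the minus-strand gene begins just left of the first base and the plus-strand gene just right of the last. Where over 300 bases lie between the starts, the central 300 are shown. Capitals mark matches to 8 short motifs on either strand: the NRF1 core GCGCATGC, the ETS motif CCGGAAG, the CCAAT box CCAAT, the GC box GGGCGG, the YY1 motif AAGATGG, the CRE TGACGTCA, the E-box CACGTG and the TATA box TATAAA. Sqstm1/Mgat4b (chr11:50210828-50210889) is the pair whose fold changes differed most among those called with nothing added to the values, Dnajb4/Fubp1 (chr3:152210303-152210421) holds the gene of FUBP1 itself, and Actg1/0610009L18Rik (chr11:120348543-120348677) has very unequal levels. Hist1h2ac/Hist1h2bc (chr13:23683949-23684198) joins 2 histone genes, Entr1/Pmpca (chr2:26389317-26389338) has no listed TACh-seq read, and Srgap2/Fam72a (chr1:131527478-131527777) has the most. Mcm4/Prkdc (chr16:15637484-15637783) is a well-known pair of DNA metabolism genes, and Cbx5/Hnrnpa1 (chr15:103239975-103240274) overlaps a FUBP1 peak.
Sqstm1/Mgat4b: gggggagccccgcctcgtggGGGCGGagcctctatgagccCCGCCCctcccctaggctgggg
Dnajb4/Fubp1: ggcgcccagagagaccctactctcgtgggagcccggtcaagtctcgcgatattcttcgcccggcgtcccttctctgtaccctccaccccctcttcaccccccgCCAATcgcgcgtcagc
Actg1/0610009L18Rik: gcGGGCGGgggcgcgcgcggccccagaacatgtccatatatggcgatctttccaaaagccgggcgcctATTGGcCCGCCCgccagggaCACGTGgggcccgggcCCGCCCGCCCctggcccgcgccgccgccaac
Hist1h2ac/Hist1h2bc: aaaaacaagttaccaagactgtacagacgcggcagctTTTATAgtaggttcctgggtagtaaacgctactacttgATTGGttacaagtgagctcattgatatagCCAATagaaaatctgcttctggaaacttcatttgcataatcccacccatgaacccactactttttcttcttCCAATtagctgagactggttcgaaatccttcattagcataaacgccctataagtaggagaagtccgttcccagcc
Entr1/Pmpca: gcgGGGCGGggtcggaagcgga
Srgap2/Fam72a: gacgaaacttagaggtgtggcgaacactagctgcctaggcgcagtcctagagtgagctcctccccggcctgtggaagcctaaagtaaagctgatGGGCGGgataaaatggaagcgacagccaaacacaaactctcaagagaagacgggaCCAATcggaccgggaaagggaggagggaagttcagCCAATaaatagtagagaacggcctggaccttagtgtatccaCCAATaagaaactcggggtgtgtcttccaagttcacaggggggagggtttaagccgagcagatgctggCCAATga
Mcm4/Prkdc: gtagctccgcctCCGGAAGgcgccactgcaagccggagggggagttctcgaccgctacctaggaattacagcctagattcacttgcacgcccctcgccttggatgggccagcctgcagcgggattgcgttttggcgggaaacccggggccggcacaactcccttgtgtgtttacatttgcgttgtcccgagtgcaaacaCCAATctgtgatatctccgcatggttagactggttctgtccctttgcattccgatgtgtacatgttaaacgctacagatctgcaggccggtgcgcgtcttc
Cbx5/Hnrnpa1: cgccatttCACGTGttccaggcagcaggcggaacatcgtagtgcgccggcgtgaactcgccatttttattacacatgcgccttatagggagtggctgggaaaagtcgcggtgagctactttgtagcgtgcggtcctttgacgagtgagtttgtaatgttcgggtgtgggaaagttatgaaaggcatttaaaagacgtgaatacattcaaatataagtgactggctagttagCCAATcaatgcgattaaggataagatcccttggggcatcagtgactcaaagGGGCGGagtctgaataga
The 62 bases of Sqstm1/Mgat4b held 2 GC boxes, 79.0% G or C, and no CCAAT or TATA box. Only 22 bases separated Entr1 from Pmpca, with 1 GC box among them. The interval between Hist1h2ac and Hist1h2bc was the poorest in G and C of the 8 (41.6%) and held 3 CCAAT boxes and the only TATA match of the set. In the 119 bases of Dnajb4/Fubp1 a single CCAAT box was matched, whereas those of Actg1/0610009L18Rik held 4 GC boxes, 1 CCAAT box and 1 E-box, the sequence that MYC and its relatives bind. A second E-box lay in the central part of Cbx5/Hnrnpa1, and the only ETS match in that of Mcm4/Prkdc. A match states only that the letters are present.

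Across the 1098 nuclear pairs, windows of 300 bases centred on the midpoint had a median of 63.7% G or C and an observed to expected CpG ratio of 0.865. They were compared with the windows from 250 bases before to 50 after the starts of 6807 expressed coding genes with no other start within 5000 bases (lone starts), which had 59.0% and 0.728. The ETS motif was found in 27.5% of pair windows, in 16.1% of lone windows and in 8.86% of 32851 RefSeq mouse promoters of the same length. The order was reversed for the TATA box, found in 3.73% of pair windows, 8.27% of lone windows and 13.6% of all promoters. The GC box was found in 71.9% of pair and 61.4% of lone windows, the YY1 motif in 9.20% and 6.36%, the NRF1 core in 6.65% and 5.36%, and the CRE in 4.19% and 3.36%. The CCAAT box (42.1% against 39.5%) and the E-box (10.9% against 10.3%) were about as frequent in both. Within the pairs, the YY1 motif was found in 12.2% of the 557 windows with both genes expressed and in 6.32% of the 475 with 1 gene expressed. These shares are descriptions, and pair windows hold transcribed DNA on both sides where the starts lie close. In the 194 nuclear pairs with over 300 bases between, the window leaves out both starts, which every lone window holds. Shares of motifs that lie at a set distance from a start, such as the TATA box, are therefore not measured alike.

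**Figure D1:**
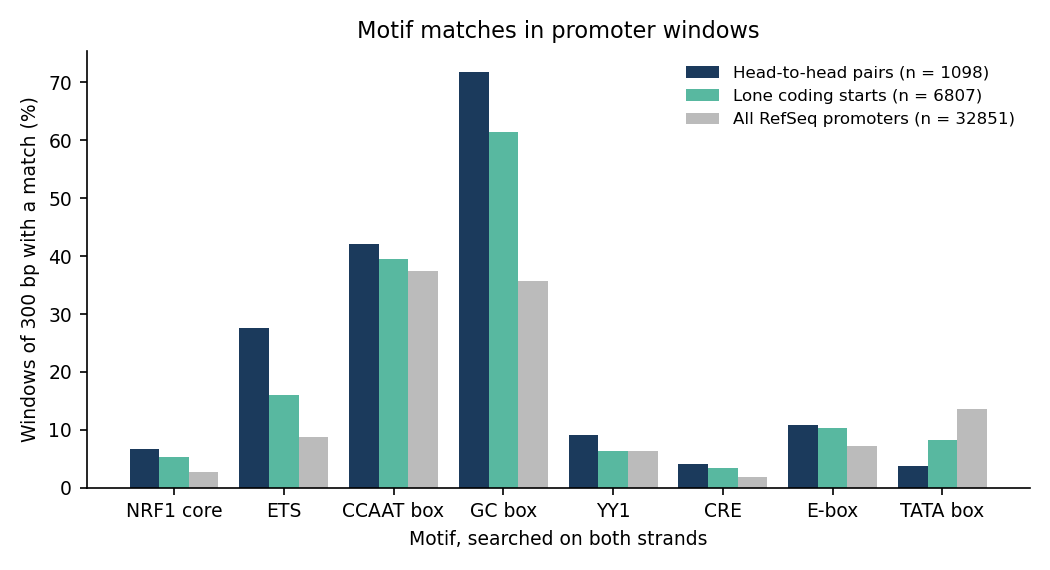
Share of 300 bp windows (y axis, %) with at least 1 match to each of 8 motifs (x axis) in head-to-head pairs, at lone coding starts and in all RefSeq promoters. The bars for pairs are the highest for every motif except the TATA box, where they are the lowest at 3.73%.

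Most pairs were close together, with a median of 125 bases between the starts and quartiles of 67 and 233, and in 906 of 1102 pairs no more than 300 bases lay between. Both genes encode proteins in 663 pairs, and a coding gene faces a long non-coding RNA (lncRNA) in 349. A pair was formed by 16.7% of the lncRNA genes measured and by 11.4% of the coding genes. Just inside the limit, the 13 pairs in the last 100 bases below it had a median of 178 TACh-seq reads, and just outside it the 14 pairs with over 1000 and up to 1100 bases had 202.5. At the other end, starts with 0 to 20 bases between (44 pairs) had a median of 98.5 reads and starts that overlap by 1 to 20 bases (21 pairs) had 110. The rule leaves out 810 pairs whose starts overlap by up to 1000 bases, among them several textbook bidirectional promoters: Hspd1/Hspe1, Col4a1/Col4a2, Ppat/Paics and Surf1/Surf2. Gart/Son, Mrps12/Sars2 and Mcm4/Prkdc were members.

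Gene families differed in how often their members stood head to head. Of 92 DNA repair genes 32 were in pairs and of 46 DNA replication genes 16, which is 34.8% of each, against 10.99% of all genes. RNA processing genes followed with 52 of 199 (26.1%), then respiratory chain genes with 27 of 107 (25.2%) and mitochondrial ribosome genes with 20 of 81 (24.7%). Chaperones (19 of 93), aminoacyl-tRNA synthetases (7 of 35), replication-dependent histones (8 of 41) and proteasome genes (9 of 47) lay near 20%, at 20.4%, 20.0%, 19.5% and 19.1%. Cell cycle genes (24 of 177, 13.6%), purine and one-carbon synthesis genes (2 of 17), zinc finger genes (44 of 441, 9.98%), collagens (4 of 44) and cytosolic ribosome genes (15 of 219, 6.85%, in a list that also holds pseudogene symbols) were near or below the share of all genes. The lists were made by symbol, so that those of collagens, cytosolic ribosome and zinc fingers also count Col4a3bp (a ceramide transfer protein), Rps6kb1 (a kinase), Zbtb8os and Zfp85os. In the same way the RNA processing list also counts subunits of the RNA polymerases, such as Polr1a, Polr2b and Polr3a. That of the cell cycle also counts the transcription cyclins Ccnk, Ccnt1 and Ccnt2, the splicing factor Cdc40 and the pseudogene symbol Ccnb1-ps. It takes in Kif and Cdk symbols whatever their function, such as Kif1c, Kif3a, Kif9 and Cdk5. The DNA repair list takes in Parp symbols in the same way, such as Parp4 and Parp12. These examples are not a complete account. Genes with a symbol ending of the kind given to opposite-strand transcripts, such as os, were in pairs in 24 of 145 cases. Other gene symbols can end in the same letters, and the 145 were not sorted further. Genes known only by a clone or model number were in pairs in 462 of 4617 cases. Pairs with both genes on 1 of the named lists were few: 3 pairs of histone genes, Col4a4/Col4a3, Hspa1a/Hspa1l and, on the zinc finger list, Zbtb25/Zbtb1, Zfp942/Zfp943, Zfp944/Zfp758 and Zfp65/Zfp85os, the last with an lncRNA named for the opposite strand.

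TACh-seq reads piled up between the starts. The table lists 4881417 reads, of which 195304 fell in the pair regions when each region was counted (4.001%, over 1277745 bases of the genome). The median region held 151 reads, with quartiles of 100 and 227, and 71 regions held none. Reads per kilobase had a median of 140 where both genes were expressed (a mean level of at least 0.1 over the 4 libraries), 125 where 1 was, 85.6 where neither was, and 96.9 at lone starts of expressed coding genes. No read was listed in 23 of 557 nuclear regions with both genes expressed (4.13%), 26 of 475 with 1 (5.47%), 18 of 66 with none (27.3%), and 1299 of 6807 lone starts (19.1%). All 4881417 listed reads had distinct positions and strands. The number of pair regions without reads was also 71 with 250 or with 1000 bases outside each start. These shares and densities therefore describe the listed reads only. In the 443 nuclear pairs with both genes expressed and at least 50 bases between starts, the median density was 303 reads per kilobase between the starts and 120 in the flanks, and the stretch between was the denser in 381 pairs and the sparser in 44.

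The mean profile of reads around the midpoint widened with the distance between the starts. Averaging pairs whose starts lie at differing distances can itself widen a mean profile, and widths of single regions were not measured. Averaged over pairs with both genes expressed, the span above 50% of the peak was 260 bp wide with up to 100 bases between starts, 320 bp with over 100 and up to 200, 400 bp with over 200 and up to 300, and 660 bp with over 300. The peak height changed less, from 6.55 to 8.41 reads per 20 bp and region, against 4.27 at lone starts, whose profile, centred on the start itself, was 360 bp wide. The means include regions without reads, which made up 19.1% of lone starts and 4.13% of pairs with both genes expressed. Pairs and lone starts were not matched for RNA level. Reads on the plus strand made up 49.9% of reads in the regions.

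**Figure D2:**
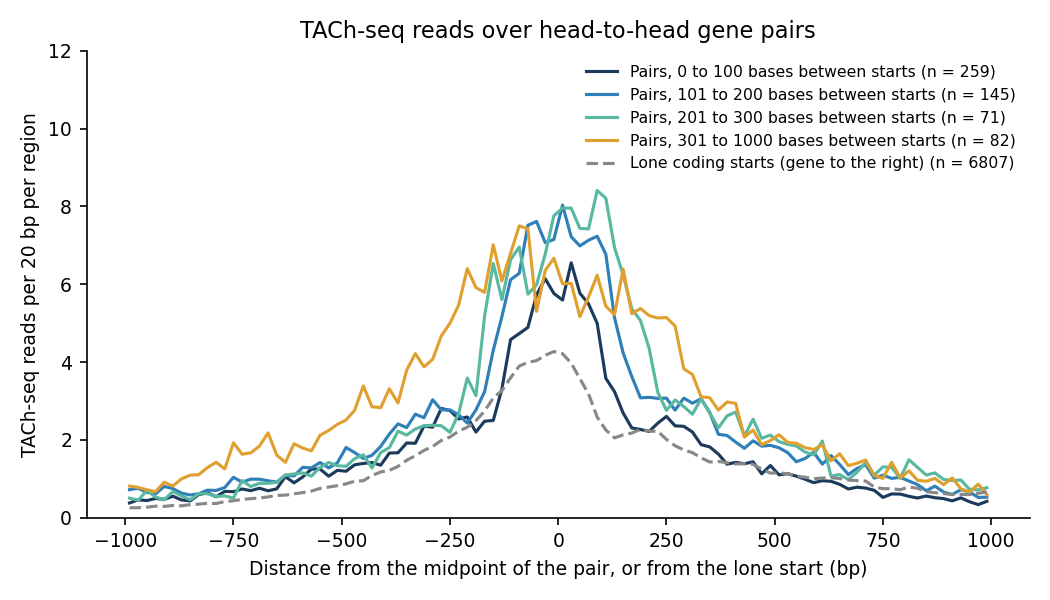
Mean number of TACh-seq reads per 20 bp and region (y axis) against the distance from the midpoint between the starts (x axis, bp), for head-to-head pairs with both genes expressed in 4 classes of distance, and from the start for lone coding genes, drawn with the gene to the right. The pair profiles peak between 6.55 and 8.41 reads and widen with the distance between the starts, and the lone profile peaks at 4.27.

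Read density rose weakly with RNA level across all pairs and hardly at all among pairs with both genes expressed. Over all 1098 nuclear pairs, Spearman's rho of reads per kilobase with the summed log2 level of the partners was 0.18, and with the level of the higher gene 0.15. Over the 557 nuclear pairs with both genes expressed, these values were 0.03 and 0.0050. Over the 6807 lone starts, all of expressed genes, rho with the level of the gene was 0.22. The lone value is not measured alike, since it uses the level of 1 gene. No read was listed at 19.1% of lone starts, against 4.13% of nuclear pairs with both genes expressed. Nor did the reads lean to the side of the more expressed gene: of 534 such pairs with reads, 263 had more reads in the flank of the higher gene, 267 had more in that of the lower gene and 4 had equal numbers, with 36728 and 37235 reads in all. Among the 104 pairs with levels at least 10-fold apart, the flank of the higher gene had more reads in 54. These correlations are across pairs, which share 1 table of reads and are not replicates.

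Of the 8 regions with the most reads, 6 had over 300 bases between the starts, and over all 1098 nuclear pairs Spearman's rho of reads with that distance was 0.32. Regions lengthen with the distance, so a larger count is partly a matter of length. Per kilobase the median was 115 reads with up to 100 bases between and 140 with over 100 and up to 200. It was 158 with over 200 and up to 300, and 131 with over 300. Srgap2/Fam72a held 781 reads (95% Poisson interval, which covers counting error only, 727 to 838), 556 of them in the 550 bases between the starts. Rnf5, a ubiquitin ligase, and Agpat1, an enzyme of phospholipid synthesis, shared 738 reads, and Cep57, a centrosomal protein, shared 737 with Fam76b. Mob3a/Izumo4 held 699, Mms19/Ubtd1 669 and Ttc9c/Hnrnpul2 647, each with expressed genes on both sides. The other two had a partner near 0: Gm15927/Cnot3 held 628 reads at mean levels of 1.01 to 2.40 for Cnot3, a subunit of the CCR4-NOT deadenylase, and 0.00605 to 0.0157 for Gm15927. Hjurp/Trpm8 held 624 reads around starts 27 bases apart, although Trpm8, the cold-sensing channel, was worth 1, 1, 0 and 8 recovered reads in the 4 libraries while Hjurp, the chaperone of the centromeric histone, had levels of 2.15 and 2.12 in low-MYC and 5.34 and 5.62 in high-MYC libraries.

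Some well-expressed pairs had no listed read. Both genes had a mean level of at least 1 in 4 nuclear pairs of this kind: Entr1/Pmpca, Rfng/Gps1, Ndufa1/Rnf113a1 and Arcn1/Ift46. Pmpca, a subunit of the mitochondrial processing peptidase, had levels of 7.42 and 7.79 in low-MYC and 17.2 and 18.2 in high-MYC libraries, and Entr1 had 3.95, 4.01, 8.57 and 8.74. Gps1, a subunit of the COP9 signalosome, had 10.4, 10.6, 25.8 and 25.8, and Ndufa1, a subunit of respiratory complex I, 3.91, 4.08, 8.75 and 9.02. The nearest listed read lay 7222 bp from the region of Entr1/Pmpca, 15028 bp from Rfng/Gps1, 79872 bp from Ndufa1/Rnf113a1 and 4048 bp from Arcn1/Ift46. Over all 67 nuclear regions without reads the distance was 27322 bp at the median, 598 bp at the least and 963251 bp at the most, and it was over 5000 bp for 57 of them. The table thus lists no read over long stretches around these promoters, and whether reads there were sequenced cannot be told from it. The 4 pairs of the mitochondrial genome (mt-Nd6/mt-Cytb and 3 that share the tRNA gene mt-Ts1) have no reads because none is listed on chromosome M. The rule took these 4 by position alone, and whether a promoter lies between their starts was not tested. The start of mt-Co2 (7013) lies between that of mt-Ts1 (6938) and those of mt-Atp8 (7766) and mt-Atp6 (7927).

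FUBP1 peaks touched 1 of the 36 head-to-head regions on chromosome 15 (2.78%) and 8 of 281 lone expressed coding starts there (2.85%). The single region was that of Cbx5/Hnrnpa1, in which a peak covered 932 of 1617 bases and which held 583 TACh-seq reads, 328 of them in the 615 bases between the starts. The peak began at position 103240001, between the starts of Cbx5 (103239816) and Hnrnpa1 (103240432). It left out the start of Cbx5 and ran on past the end of the region (103240932) to 103250400. Cbx5 encodes heterochromatin protein HP1 alpha and Hnrnpa1 an abundant splicing factor. Cbx5 had levels of 1.94 and 2.09 in low-MYC and 4.64 and 5.21 in high-MYC libraries, and Hnrnpa1 had 41.9, 44.6, 76.2 and 85.7. Neither gene's groups overlapped, and the rise was smaller for Hnrnpa1, by 1.87-fold against 2.44-fold.

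Both genes were expressed in 561 of the 1102 pairs (50.9%), 1 gene in 475 and neither in 66, shares close to those of tandem pairs (54.5% with both) and tail-to-tail pairs (52.5%). In terms of reads, both genes had a mean of at least 200 recovered reads per library in 534 pairs, and in 233 of the 475 pairs with 1 expressed gene the other gene had under 20. Of the coding genes in pairs 84.1% were expressed, against 65.8% of the other coding genes, and their median level was 0.853 against 0.371 per kilobase of gene span and 4.09 against 2.25 per kilobase of exon. Where a coding gene faced an lncRNA, the coding gene was expressed in 308 of 349 pairs and the lncRNA in 92, with median levels of 0.923 and 0.0260, and the lncRNA was the higher in 33.

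Closely spaced head-to-head starts did not come with equal levels. The pairs compared here include the 4 of the mitochondrial genome. Across the 561 pairs with both genes expressed, the higher gene had a median of 3.23 times the level of the lower per kilobase of gene span (quartiles 1.80 and 8.11) and 3.26 times per kilobase of exon (550 pairs with annotated exons), against 3.57 and 3.68 in tandem and 4.45 and 4.15 in tail-to-tail pairs. Levels were within 2-fold in 171 pairs (30.5%) and at least 10-fold apart in 112 (20.0%). These shares were 29.2% and 23.0% in tandem pairs and 22.3% and 27.7% in tail-to-tail pairs. Spearman's rho between the partners was 0.12 per kilobase of gene span and -0.01 per kilobase of exon, compared with 0.30 and 0.26 in tandem pairs and 0.07 and 0.01 in tail-to-tail pairs. The order of the partners was steady, since the same gene was the higher in all 4 libraries in 541 of the 561 pairs (96.4%). It was as steady in tandem (95.2%) and tail-to-tail pairs (98.5%). The minus-strand gene was the higher in 277. For 456 of 550 pairs the same gene was the higher on both scales of length.

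**Figure D3:**
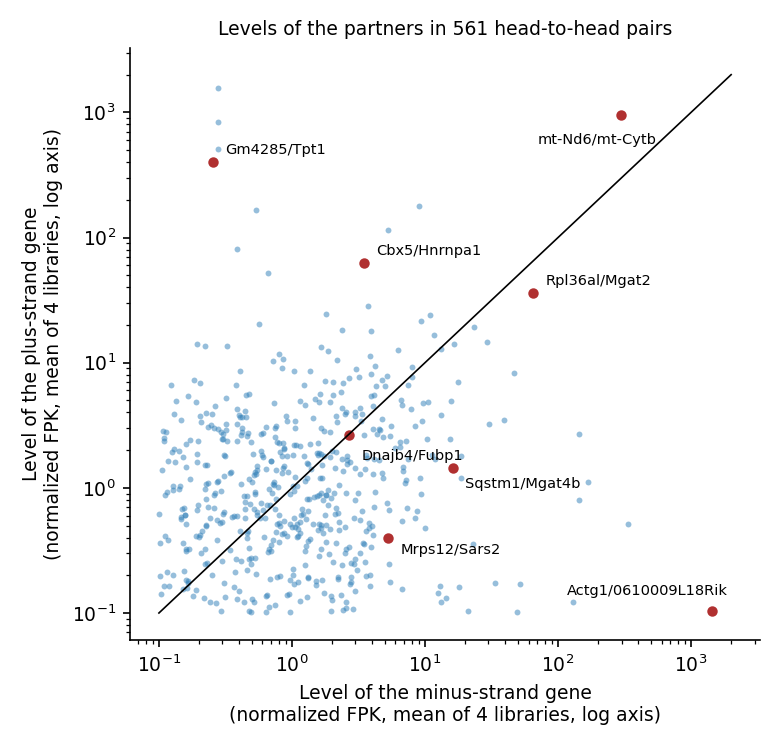
Level of the plus-strand gene (y axis) against the level of the minus-strand gene (x axis), in normalized FPK averaged over 4 libraries on log axes, for the 561 head-to-head pairs with both genes expressed, and a line of equal levels. Points spread widely on both sides of the line, and 8 pairs are named, from Dnajb4/Fubp1 on the line to Actg1/0610009L18Rik in the lower right corner.

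Among pairs with both genes expressed, those of the most equal and most unequal levels show the range. Dnajb4, a heat shock protein of the DnaJ family, had levels of 1.75 and 1.83 in low-MYC and 3.35 and 3.81 in high-MYC libraries, and Fubp1 had 1.74, 1.83, 3.36 and 3.74, per kilobase of gene span. The partners differed by less than the spread between replicates in every library on that scale, and per kilobase of exon Dnajb4 was 2.14 times as high. Setd3, a histidine methyltransferase of actin, and Ccnk, cyclin K, had a ratio of 1.00 per kilobase of gene span and 1.54 per kilobase of exon. Both of these pairs were picked after their values were seen. At the other end, Actg1, cytoplasmic gamma actin, had levels of 833 and 874 in low-MYC and 1985 and 2090 in high-MYC libraries, and its partner 0610009L18Rik had 0.0623, 0.0660, 0.140 and 0.145. These were 36.0, 38.0, 36.0 and 33.0 recovered reads for 0610009L18Rik, and the ratio of the partners was 13995 per kilobase of gene span and 3700 per kilobase of exon. Tpt1, the translationally controlled tumour protein, exceeded its lncRNA partner Gm4285 by 1575-fold per kilobase of gene span. The remaining 3 of the 5 largest ratios among these pairs belong to mt-Ts1 with mt-Atp8, mt-Atp6 and mt-Co2, where mt-Ts1 was worth 1, 4, 0 and 5 reads.

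By summed level the 5 highest pairs were Gm13986/Thbs1, Actg1/0610009L18Rik, mt-Nd6/mt-Cytb, mt-Ts1/mt-Atp6 and mt-Ts1/mt-Atp8. Thbs1, the secreted matrix protein thrombospondin 1, had 538 and 533 in low-MYC and 1192 and 1244 in high-MYC libraries, and its lncRNA partner Gm13986 had 0.00211, 0.00249, 0.00577 and 0.00531. The mitochondrially encoded mt-Cytb had 558, 656, 1207 and 1410, and mt-Nd6 on the other strand had 173, 195, 377 and 449. Among nuclear pairs with both genes high, Rpl36al, a ribosomal protein gene, had 41.5, 41.5, 87.5 and 89.5 and Mgat2, an enzyme that builds N-glycans, had 21.3, 22.3, 48.5 and 52.4 around starts 73 bases apart.

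The well-known pairs show how gene length enters. Mcm4, a subunit of the replicative helicase, had levels of 3.94, 3.99, 9.99 and 10.2 and Prkdc, the catalytic subunit of DNA-dependent protein kinase, had 0.0477, 0.0482, 0.112 and 0.125. Prkdc spans 204370 bases with 13187 exonic, so that the ratio of 84.6 per kilobase of gene span was 20.5 per kilobase of exon, and Prkdc was worth 2238, 2258, 2337 and 2314 reads. Gart, an enzyme of purine synthesis, had 1.64, 1.68, 3.67 and 3.72 and Son, a splicing factor, 4.53, 4.66, 9.98 and 11.0. Mrps12, of the mitochondrial ribosome, had 3.05, 3.16, 7.19 and 7.58 and Sars2, the mitochondrial seryl-tRNA synthetase, 0.237, 0.239, 0.564 and 0.558. In each of these genes both high-MYC libraries lay above both low-MYC libraries.

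Both partners rose in high-MYC cells in 539 of the 561 pairs with both genes expressed, and nearly all expressed genes rose. Of the 1577 genes of pairs that were tested, 880 (55.8%) rose by 2-fold or more from low-MYC to high-MYC cells at an adjusted p under 0.01 (limma on log2 of the level plus 0.1, Benjamini-Hochberg adjustment over all 11870 genes tested), and the same was true of 55.1% of all genes. At any fold change 1552 genes of pairs were higher (98.4%, all genes 97.1%) and 1 was lower (0.0634%, all genes 0.0253%). The median log2 fold change was 1.03 both for the genes of pairs and for all genes. Libraries were also brought to a common median level, which removes this common shift of 1.03. On those values 5 genes of pairs were higher (0.317%) and 5 lower (0.317%), against 1.76% and 0.531% of all genes. Counts by gene list followed the same course: of the tested members all 20 mitochondrial ribosome, 26 respiratory chain, 26 DNA repair, 16 DNA replication, 51 RNA processing, 39 zinc finger, 20 cell cycle and 9 proteasome genes were higher, as were 4 of 5 histone genes and 16 of 17 chaperones. On the rescaled values the median log2 fold change of these lists lay between -0.08 for the proteasome and 0.31 for the histones, with -0.01 for all genes of pairs.

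The gene that was lower was Hspa1a, an inducible heat shock protein HSP70, at 2.23 and 2.23 in low-MYC and 1.59 and 1.80 in high-MYC libraries (log2 fold change -0.38, SE 0.07, adjusted p = 0.0024 by limma), and its reads may be shared with a near-identical copy. Its partner Hspa1l, an HSP70 gene of the same cluster, had 0.0257, 0.0479, 0.0945 and 0.0908, or 38.8, 72.2, 63.7 and 54.1 recovered reads, so that only the values of the partner were higher in both high-MYC libraries. The other genes lower after rescaling were Sqstm1 (-0.73), Rnf19b (-0.36), Tgif1 (-0.36) and Tes (-0.35), all of which rose without it. Those higher after rescaling were Ptprv (log2 fold change 0.66 on the rescaled and 1.43 on the deposited values), Hist2h3c2 (0.57 and 1.57), Trib2 (0.52 and 1.61), Hist1h2bc (0.49 and 1.60) and D430020J02Rik (0.41 and 1.46). Of these 10 genes 4 faced a partner that was itself tested: Sqstm1 with Mgat4b, Hist1h2bc with Hist1h2ac, Hist2h3c2 with Gm20632 and D430020J02Rik with Ncapg2, a condensin subunit.

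Partners were next compared directly, as the difference between the log2 fold change of the plus-strand gene and that of the minus-strand gene, fitted with limma on the difference within each library over all 1191 close gene pairs of any orientation with both genes expressed. At an adjusted p under 0.01, 37 of the 561 head-to-head pairs (6.60%) differed, against 8.4% of all pairs tested, and 10 differed at least 1.5-fold, against 2.52%. In 36 of the 37 pairs the gene with the lower level had the smaller log2 fold change, as it had in 441 of all 561, and in 33 of the 37 its level was under 1, where the added 0.1 compresses a fold change. With 0.01 added instead, none of these differences passed (146 of 561 at an unadjusted p under 0.05, compared with 281), and none passed when any 1 of the 4 libraries was left out. A lost call did not always come with a smaller difference: Sqstm1/Mgat4b differed by 0.65 with 0.1 added, 0.72 with 0.01 added and 0.64 to 0.66 without 1 library, and Moap1/Tmem251 by -0.57 with either value added.

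Of the 37 pairs, several with large differences were read against the values with nothing added. Fhl4/Tmem263 differed by 0.79, Sqstm1/Mgat4b by 0.65 and 4933406P04Rik/Bclaf1 by 0.60, with adjusted p from 0.0059 to 0.0090. In the other direction Fam120a/Fam120aos differed by -0.72, Tomm6/Frs3 by -0.71, Actg1/0610009L18Rik by -0.69, Ndufa4/Phf14 by -0.61 and Fhod1/Slc9a5 by -0.60, with adjusted p from 0.0059 to 0.0072. The ratio of the plain means, with nothing added, was close for some of them: 2.39-fold for Actg1 and 2.22-fold for 0610009L18Rik, and 2.28-fold for Ndufa4, a cytochrome oxidase subunit, and 1.99-fold for Phf14. Sqstm1 and Mgat4b stood apart, at 1.36-fold and 2.26-fold.

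Since the calls depended on the value added, differences were also fitted with nothing added, on genes with a mean of at least 200 recovered reads per library, a choice made after the values were seen. Of 534 head-to-head pairs 15 (2.81%) then differed at an adjusted p under 0.01, against 5.52% of the 1106 pairs of any orientation, with 16 of 297 tandem (5.39%) and 30 of 275 tail-to-tail pairs (10.9%). The median size of the difference was 0.10 in head-to-head, 0.12 in tandem and 0.14 in tail-to-tail pairs, at median standard errors of 0.054, 0.055 and 0.055. Spearman's rho between the log2 fold changes of the partners was 0.27 in head-to-head, 0.13 in tandem and 0.06 in tail-to-tail pairs, over pairs that share their libraries, and the difference between orientations was not tested. This order depended on the fit, since with 0.1 added the correlations were 0.14, 0.16 and 0.15 and the median sizes 0.16, 0.15 and 0.17, per exonic kilobase the correlations were 0.12, 0.09 and 0.10 and the sizes 0.15, 0.17 and 0.16, and with 0.01 added the correlations were 0.26, 0.15 and 0.12 and the sizes 0.10, 0.13 and 0.15. Of the 15 pairs, 6 were also among the 37.

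**Figure D4:**
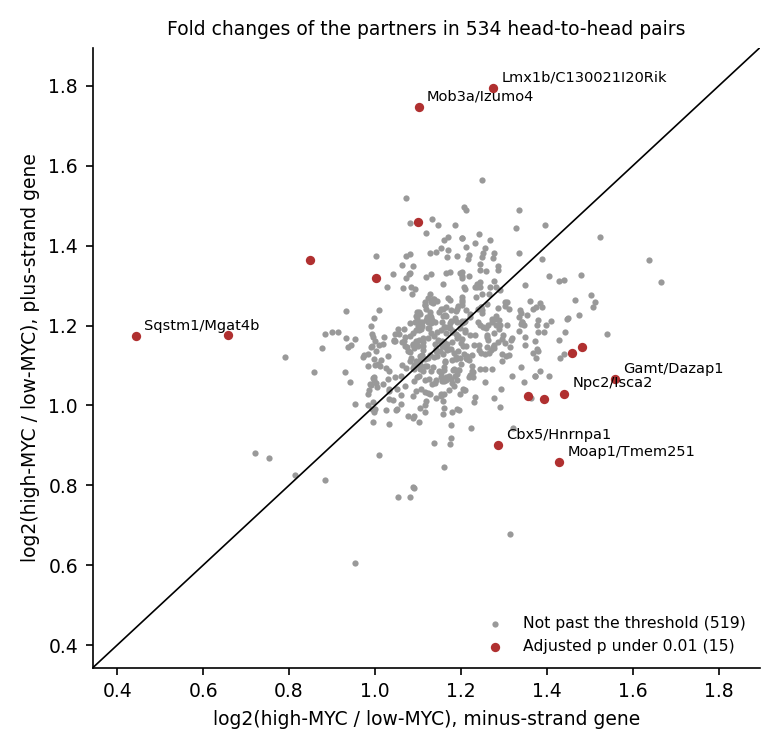
Log2 ratio of high-MYC to low-MYC levels of the plus-strand gene (y axis) against that of the minus-strand gene (x axis), with nothing added to the values, for 534 head-to-head pairs with a mean of at least 200 recovered reads per library in both genes, and a line of equal change. Nearly all points lie above 0.5 on both axes, and the 15 pairs with an adjusted p under 0.01 are drawn in red, with Sqstm1/Mgat4b at the far left.

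Of the 15 pairs Sqstm1/Mgat4b had the largest difference, 0.73 (SE 0.05, adjusted p = 0.0012 by limma without a pseudocount). Sqstm1, which encodes the autophagy receptor p62, had levels of 13.6 and 13.7 in low-MYC and 18.1 and 19.0 in high-MYC libraries, and Mgat4b, an enzyme of N-glycan branching, 0.895, 0.891, 1.95 and 2.07. Both genes were higher in both high-MYC libraries, Sqstm1 by a log2 fold change of 0.44 (SE 0.04) and Mgat4b by 1.09 (SE 0.05) in the fit with 0.1 added. Sqstm1 had 11.1 times the level of Mgat4b per kilobase of gene span and 4.25 times per kilobase of exon, although only 62 bases lie between their starts and the region held 138 TACh-seq reads.

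The other 14 pairs differed by 0.32 to 0.65 in one direction or the other. Ncapd2, a condensin subunit, rose more than Mrpl51 of the mitochondrial ribosome (difference -0.33), Cdca2, a mitotic chromatin protein, more than Kctd9 (-0.38), and Gen1, a resolvase of recombination intermediates, more than Smc6 of the SMC5/6 complex (-0.33). Orc1, of the origin recognition complex, rose more than the splicing factor Prpf38a (0.32), and the mitotic kinesin Kif15 more than 1110059G10Rik (0.36). Cdca2 had 0.295 and 0.309 in low-MYC and 0.753 and 0.836 in high-MYC libraries, and Kctd9 had 0.907, 0.945, 1.79 and 1.96, so that both genes were higher in both high-MYC libraries. Differences of -0.33 in Rida/Pop1, 0.52 in Dedd2/Zfp526, 0.52 in Lmx1b/C130021I20Rik and 0.65 in Mob3a/Izumo4 also passed, and each of these pairs has a gene with a mean level under 1.

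For 4 more of the 15 pairs the levels are given in full. Moap1, a modulator of apoptosis, had 1.31 and 1.32 in low-MYC and 3.54 and 3.53 in high-MYC libraries and Tmem251 0.950, 0.988, 1.76 and 1.75, a difference of -0.57 (adjusted p = 0.0018 by limma). Gamt, an enzyme of creatine synthesis, had 0.858, 0.856, 2.39 and 2.66 and the RNA-binding gene Dazap1 0.758, 0.777, 1.55 and 1.67, a difference of -0.49 (adjusted p = 0.0032 by limma). Npc2, which carries cholesterol out of lysosomes, had 5.59, 5.80, 15.2 and 15.7 and Isca2, of iron-sulphur cluster assembly, 3.20, 3.14, 6.23 and 6.72, a difference of -0.41 (adjusted p = 0.0070 by limma). Akr7a5, an aldehyde reductase, had 0.632, 0.688, 1.67 and 1.73 and Pqlc2, a lysosomal amino acid transporter, 0.337, 0.340, 0.590 and 0.629, a difference of 0.52 (adjusted p = 0.0047 by limma). For Cbx5/Hnrnpa1, the pair with the FUBP1 peak, the difference was -0.38 (adjusted p = 0.0071 by limma), and -0.35 (adjusted p = 0.0115) with 0.1 added. For Dnajb4/Fubp1 it was -0.01 (SE 0.04), a log2 fold change of 0.96 for Dnajb4 and 0.95 for Fubp1 with 0.1 added.

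**Figure D5:**
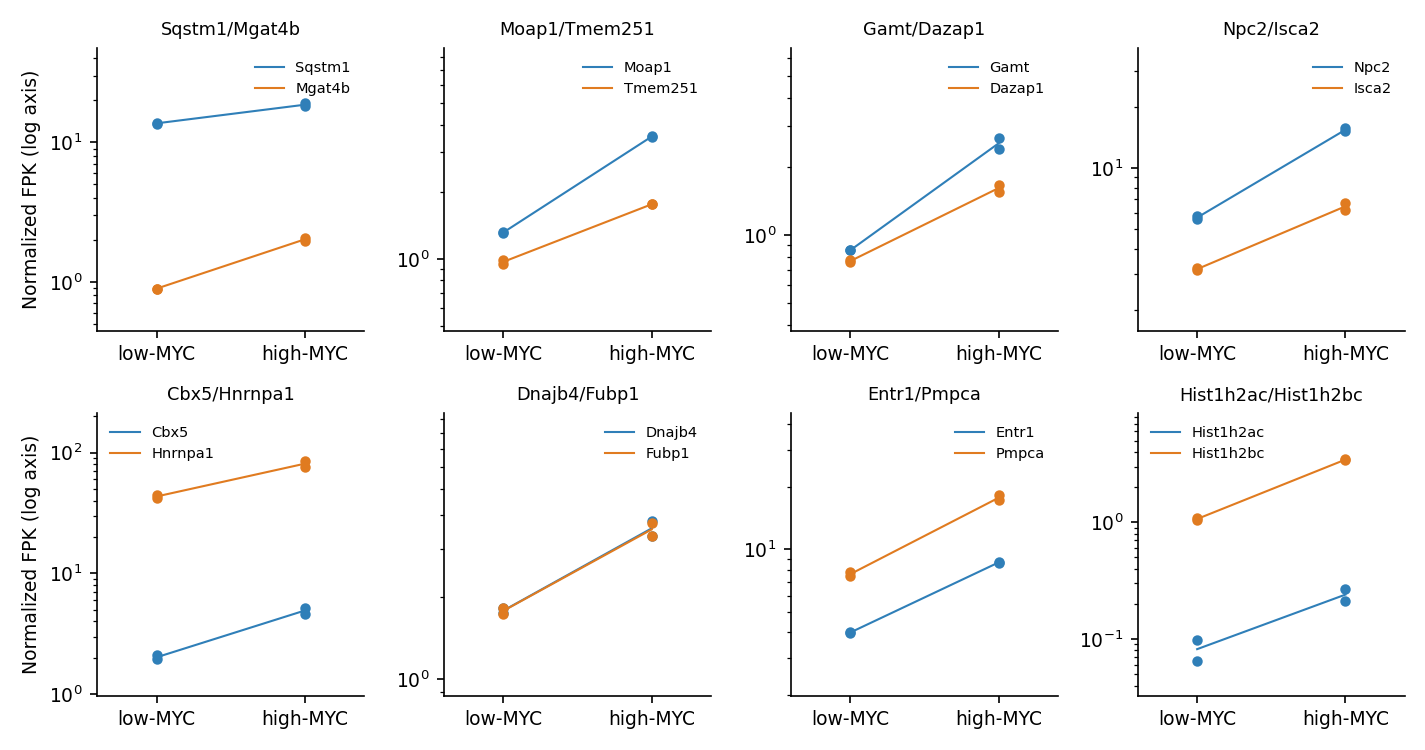
Normalized FPK (y axis, log scale) of both genes of 8 head-to-head pairs in the 2 low-MYC and 2 high-MYC libraries (x axis); points are libraries and lines join group means. The lines of Sqstm1/Mgat4b converge and those of Moap1/Tmem251, Gamt/Dazap1 and Npc2/Isca2 diverge, while those of Dnajb4/Fubp1 coincide.

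The histone pairs join a gene for histone H2A or H3 with one for H2B. Hist1h2bc had levels of 1.05 and 1.09 in low-MYC and 3.41 and 3.48 in high-MYC libraries, a 3.23-fold rise, and its partner Hist1h2ac had 0.0655, 0.0984, 0.213 and 0.268, a 2.93-fold ratio. Hist1h2bg had 0.135, 0.176, 0.631 and 0.291 and Hist1h2ae 0.0354, 0.0578, 0.159 and 0.0889, so both partners were highest in the same high-MYC library. Hist1h2bh had 0.0461, 0.0527, 0.180 and 0.169 and Hist1h3f 0.0133, 0.0310, 0.0790 and 0.0882, the latter worth 3.85 to 10.2 reads. Reads of histone genes may be shared among near-identical copies, and replication-dependent histone mRNA mostly lacks the poly(A) tail. The 3 regions held 145, 152 and 157 TACh-seq reads. Col4a4/Col4a3, by contrast, held no read and had levels up to 0.00433.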

How the data were processed

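RNA values were deposited by the authors as FPK divided by a spike-in score, and are treated as a signal. Per the study's methods, TopHat aligned trimmed reads to mm10 transcripts, Partek's E/M algorithm quantified them and 10 ERCC transcripts gave the score. TACh-seq reads, aligned with Bowtie2, were deposited as positions with a mapping score, and FUBP1 peaks, called with SICER in windows of 200 bp, as positions. The end column of the gene table lies 1 base past the annotated end (GENCODE M21) and was corrected.

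Reads were counted by their midpoint. Levels were tested with limma 3.58.1 (R 4.3.3) on log2(level + 0.1) for genes whose mean level reached 0.1, over all genes or all close pairs, with Benjamini-Hochberg adjusted p-values, after a test on simulated data. Named pairs were those with the largest differences among called pairs (5 in each direction), the most reads (8), the highest levels and ratios (5 each), no reads at levels of at least 1, a FUBP1 peak, both genes on 1 list, or textbook status, and others are said to have been chosen later. Dnajb4/Fubp1, Setd3/Ccnk, Rpl36al/Mgat2 and the pairs of the fit without a pseudocount were chosen after their values were seen. Of the pairs this rule names, 2 are not reported here. The members and lists were chosen with earlier results of these data known.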

Additional observations from a re-analysis of the deposited data

How the results depend on the processing

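The count of genes of pairs at least 2-fold higher was 880, and 1372 with a pseudocount of 0.01, 179 with 1, 0 after rescaling to the same median and 759 to 1023 without 1 library. Genes higher at any fold change numbered 1552, 822 at a minimum mean of 1, 5 after rescaling and 1557 to 1570 without 1 library, and genes lower numbered 1, 0 with no filter on low values, 5 after rescaling and 1 to 2 without 1 library. Pairs whose genes differed numbered 37 (10 at least 1.5-fold), and 0 (0) with a pseudocount of 0.01, after rescaling, or without any 1 library, 399 (94) with a pseudocount of 1, 548 (382) with no filter, and 7 (1) at a minimum mean of 1. Chosen after seeing the data, a minimum mean of 1 with a pseudocount of 0.01 gave 8 (1), no pseudocount with a mean of at least 200 recovered reads 15 (2), and levels per exonic kilobase 0 (0, with 302 of 757 pairs at an unadjusted p under 0.05). With the replicate number as a block, 55 (16) pairs differed. The deviations of libraries with the same number correlated at 0.08 over 11870 genes, so the numbers were not taken to pair the libraries.

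On the log2 scale with 0.1 added, the median ratio of partner levels was 2.75, and 3.16 with 0.01 added or per exonic kilobase, 1.71 with 1 added and 4.55 with no filter. Spearman's rho of levels was 0.12, and -0.0056 per exonic kilobase, -0.052 with no filter and 0.11 to 0.12 without 1 library. The median of 151 reads became 116 with 250 bp and 184 with 1000 bp outside each start. It moved less with any overlap, a mapping score of at least 30 or pairs up to 300 bp apart, and the single FUBP1 region stayed 1.

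Among named values, 10 of 375 changed sign. Rescaling turned the log2 fold changes of Sqstm1 (-0.73), Mgat4b (-0.0050), Rnf19b (-0.36), Tes (-0.35), Tgif1 (-0.36), Fubp1 (-0.18), Dnajb4 (-0.17) and Hnrnpa1 (-0.28), the difference of Mob3a/Izumo4 was -0.31 with a pseudocount of 1, and that of Dnajb4/Fubp1 ranged from -0.023 to 0.0045 without 1 library, being above 0 without high-MYC replicate 2. The cause was not tested beyond what these settings change.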
